A study of Mus musculus with 4 samples.

Results

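Solute carriers are the membrane proteins that move nutrients, ions, metals and metabolites across the surface of a cell and the walls of its mitochondria, lysosomes, endoplasmic reticulum and Golgi. Their genes carry the prefix Slc, a family number, the letter a and a member number. The genes described here are the protein-coding genes of that name pattern with at least 50 raw counts in each of 4 libraries of mouse tumour-associated macrophages, leaving out by name the glucose carrier Slc2a1, the lactate carrier Slc16a3 and the amino acid transport genes Slc3a2, Slc7a1, Slc7a2 and Slc7a11. The rule kept 153 of the 342 protein-coding genes of this name pattern and of the 54532 genes in the file. A further 183 stood under the count minimum, and 68 of those had no count in any library. The genes were thus chosen by their raw counts in all 4 libraries, so levels and the number of genes detected are given as descriptions, and a carrier that was low in either group could not enter.

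The cells were macrophages sorted from glioblastoma xenografts, tumours grown from transplanted cells in a host mouse. They were gated as live cells positive for the leukocyte antigen CD45 and the myeloid antigen CD11b and negative for Gr1. Each group held 2 libraries. One pair is labelled control and the other MK-8931, a drug that blocks BACE1, the protease that makes the first cut in amyloid-beta production. The labels give 3 days of treatment, with vehicle as the comparison, but word the treatment, culture and RNA steps for glioma stem cells (GSCs), so how the compound reached the macrophages is not settled by them. The strain entry reads only "GBM mice". Neither the host's genotype, sex and age nor the tumour line is stated, and nothing says that the libraries came from separate animals. P-values therefore weigh the difference only against the spread among these 4 samples, part or all of which may be technical.

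Library totals ran from 18257930 to 20179875 counts. The 153 carrier genes took 1.10% to 1.17% of all counts in each library. The sorted identity was visible in 13 macrophage marker genes such as Csf1r and Cd68, which summed to 16539 and 21102 CPM (counts scaled to library size and by TMM) in the controls and to 16244 and 17987 CPM with MK-8931. The 6 neuronal markers summed to at most 0.872 CPM in any library, and Gad1, Snap25 and Syt1 had no count. Markers of myeloid cells, those of macrophages included, were not all level between the groups. The 21 neutrophil markers summed to 501 and 459 CPM in controls and to 1345 and 2087 CPM with MK-8931. By the test used here 14 of the 16 tested were higher, against 0.861% of all genes tested. Elane had no count in any library, and Ly6g reached at most 0.761 CPM in MK-8931 library 2. The 10 monocyte markers summed to 1328 and 1238 CPM in controls and to 1844 and 1904 CPM with MK-8931, and 5 of the 10 were higher. Of the 13 macrophage markers 1 was higher, Itgam, the gene of CD11b (adjusted p = 0.0485, edgeR). Both treated libraries lay above both controls in 4 of the 13 and below both in 6. Those shares were 21.2% and 20.03% over all genes tested. Cd14 had a log2 fold change of 0.72 and C1qa of −0.60 (adjusted p = 0.0505 and 0.270, edgeR). Of the dendritic cell markers 1 of 11 was higher, Ccl22, and of the red cell and platelet markers 2 of 3 tested, Pf4 and Ppbp. The 10 microglia markers summed to 2972 and 3574 CPM in controls and to 2416 and 2633 CPM with MK-8931. Among 9 tested there were 0 calls, and the median log2 fold change was −0.37. In 7 of the 9 both treated libraries lay below both controls, as they did in 20.03% of all genes tested. Gpr34 and P2ry12 had the smallest p (−1.13 and −0.66, adjusted p = 0.0609 and 0.113, edgeR). The T and NK cell, B cell, mast cell and basophil, endothelial, pericyte and fibroblast, astrocyte and oligodendrocyte lists had 0 calls. In bulk RNA, a change in the number of cells of a type and a change in the RNA per cell cannot be told apart. For every gene described below, the part of these marker differences in its change was not tested.

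A macrophage ingests cells and particles, digests them in acid lysosomes and must export or store what it recovers. Carriers of the Slc11 and Slc40 families move iron, and those of Slc30 and Slc39 move zinc in opposite directions across the cytosol's borders. Lysosomal members of Slc15, Slc17, Slc29, Slc36, Slc38 and Slc48 pass on peptides, sialic acid, nucleosides, amino acids and heme. Most proteins of the Slc25 family sit in the inner mitochondrial membrane, with exceptions such as the peroxisomal Slc25a17 and the outer-membrane Slc25a46. Of the 48 families in the file with this name pattern, 42 had at least 1 gene here. In 4 cases the gene is only named after a carrier. These are the scaffold genes Slc9a3r1 and Slc9a3r2, which tether transporters to the cell cortex, together with Slc4a1ap and Slc7a6os. The other 149 are counted here as carriers by their names, and transport was not measured.

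Levels in deposited FPKM (fragments scaled to gene length and library size) spanned a wide range, and few carriers were abundant. Only 12 of the 153 had a mean FPKM of at least 50 and 62 had at least 10, while 5 were under 1. The 10 most abundant took 38.5% to 41.0% of the summed FPKM in each library. After Slc25a5 came Slc6a6, the taurine carrier, at 129 ± 8.47 FPKM in controls and 110 ± 10.9 FPKM with MK-8931 (SD, n = 2). It was followed by Slc7a8, the LAT2 carrier of large neutral amino acids, at 98.9 ± 6.98 and 91.7 ± 8.65 FPKM, and by Slc27a1, a fatty acid transport protein, at 85.4 ± 3.45 and 72.9 ± 1.54 FPKM. The next 6, from Slc25a3 to Slc48a1, had mean levels between 65.4 and 73.8 FPKM. In the controls Slc25a3, Slc15a3, Slc25a4 and Slc48a1 differed by less than the largest of their SDs, so their order is not settled. Slc11a1 had a lower mean than these in the controls, at 57.1 ± 0.882 FPKM, within the SD of Slc25a4 and Slc48a1, and a higher mean with MK-8931, at 89.6 ± 1.71 FPKM.

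**Figure D1:**
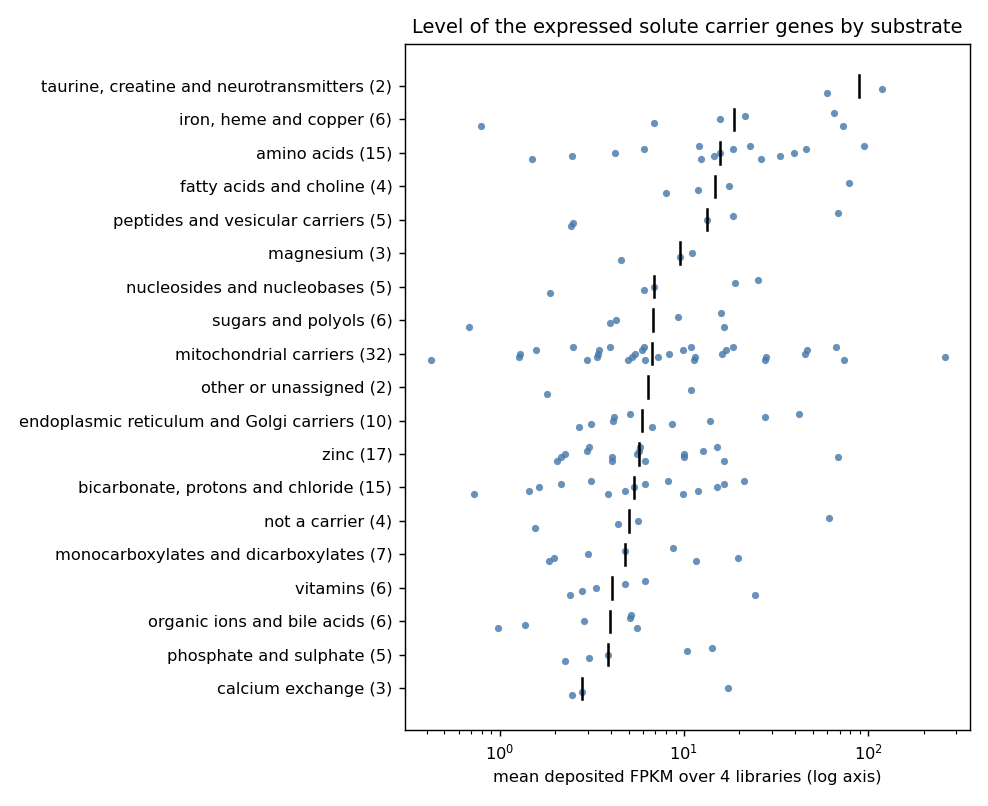
Mean deposited FPKM over the 4 libraries (horizontal log axis) of each of the 153 genes, by substrate group with the number of genes in brackets; bars are group medians. Slc25a5 stands at 261 FPKM and the lowest gene, Slc25a53, at 0.421 FPKM, with a median of 6.16 over all 153.

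The comparison of MK-8931 with control asks whether the inhibitor changed the carriers that these macrophages express. In the fit across 13932 genes with edgeR's quasi-likelihood test, 1 of the 153 genes rose and 0 fell. The gene that rose was Slc11a1, the metal carrier of the phagosome. Among all genes tested 0.861% were called higher and 0.136% lower, so the share of carriers called in either direction, 0.654%, was near the 0.998% of all genes. Among the 10066 protein-coding genes with at least 50 counts in all 4 libraries, called here well-covered genes, 0.785% were higher, 0.179% lower and 0.964% either. At an unadjusted p under 0.05, edgeR gave 7 carriers higher and 7 lower, or 4.58% each. The shares were 6.53% higher and 4.25% lower over all genes tested, and 6.03% and 4.87% over well-covered genes. In both directions together 9.15% of carriers reached it, against 10.8% of all genes and 10.9% of well-covered genes. DESeq2 called 2 higher, Slc11a1 and the glucose carrier Slc2a3, and 0 lower, beside 266 higher and 96 lower over all genes. With limma-voom Slc11a1 alone was called, beside 120 higher and 30 lower over all genes. For carriers and for all genes, the count depended on which library was kept.

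Few of the fitted differences passed 1.5-fold. The fitted log2 fold changes ran from −0.77 to 0.90, with a median of −0.033 against −0.0030 for all genes tested, and 84 of the 153 lay below 0. The fitted fold exceeded 2-fold for 0 carriers and 1.5-fold for 7, or 4.58% of them. The corresponding share at 1.5-fold was 16.6% of all genes tested and 5.99% of well-covered genes. For 138 carriers the 95% interval of the fold change lay wholly within a 2-fold change in either direction, or 90.2%, against 65.2% of all genes tested and 88.5% of well-covered genes. For 73 it lay within a 1.5-fold change, or 47.7%, against 37.02% and 50.8%. The median absolute log2 difference was 0.19 between the groups, 0.14 between the 2 controls and 0.18 between the 2 MK-8931 libraries. The first of these is a fitted difference between groups of 2 and the others are gaps between single libraries, so they are not on one footing. Among well-covered genes the median absolute log2 difference between the groups was 0.16, below that of the carriers. Among all genes tested it was 0.20, above that of the carriers.

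**Figure D2:**
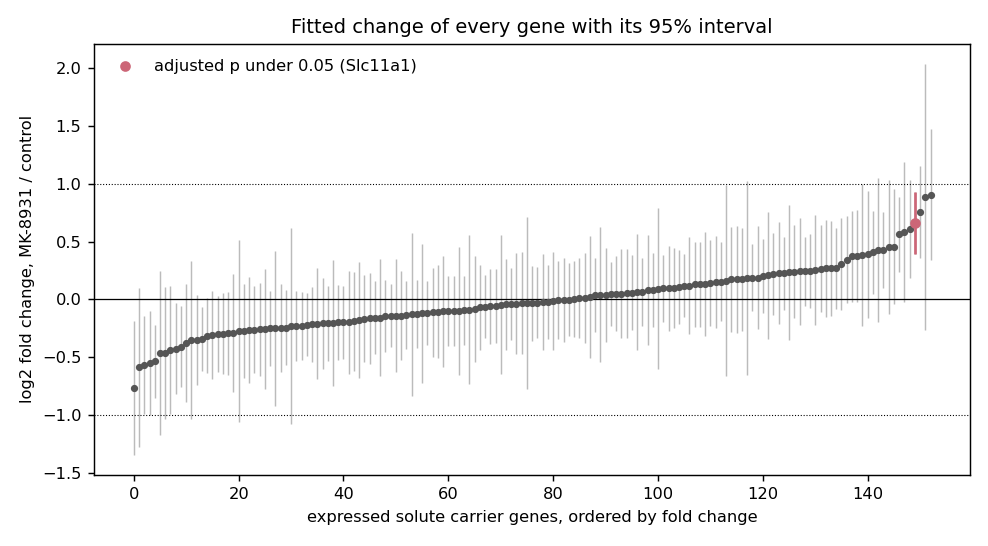
Fitted log2 fold change of MK-8931 over control for each of the 153 carrier genes, ordered from lowest to highest, with its 95% interval as a vertical line. Dotted lines mark a 2-fold change. Slc11a1, in red, is the gene with an adjusted p under 0.05, and 138 of the 153 intervals lie between the dotted lines.

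Counting only whether the libraries of the groups overlapped, 31 carriers had both MK-8931 libraries above both controls, or 20.3%, against 21.2% of all genes tested and 19.6% of well-covered genes. In the other direction 44 had both below, or 28.8%, against 20.03% of all genes and 21.8% of well-covered genes. Of these 44 none passed the edgeR test, where 7 carriers had a negative change at an unadjusted p under 0.05. DESeq2 and limma-voom also called 0 carriers lower.

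**Figure D3:**
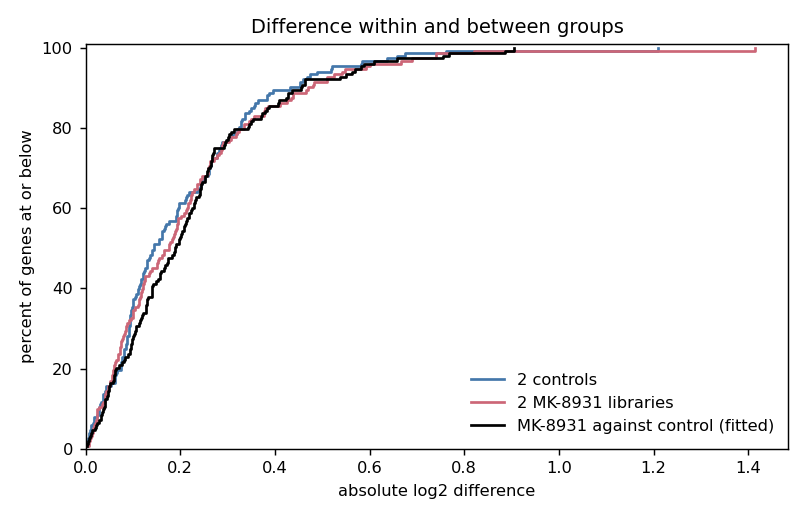
Share of the 153 carrier genes (vertical axis, percent) at or below a given absolute log2 difference (horizontal axis), for the 2 controls against each other, the 2 MK-8931 libraries against each other, and the fitted difference between groups. The medians are 0.14, 0.18 and 0.19. The fitted difference averages 2 libraries a group and the other curves compare single libraries, so the curves are not expected to coincide when nothing differs.

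Slc11a1 (ENSMUSG00000026177) encodes NRAMP1, a proton-coupled carrier that takes iron and manganese out of the phagosome of macrophages and neutrophils and so starves ingested microbes. The gene lies on chromosome 1, from 74375195 to 74386062 on the plus strand (GRCm38). It stood at 215 and 209 CPM in the controls and at 330 and 339 CPM with MK-8931. The libraries of each group lay close together and the groups did not overlap. The log2 fold change was 0.66 (SE 0.12, 95% interval 0.39 to 0.93, adjusted p = 0.0453, edgeR). The call was lost without MK-8931 1 (adjusted p = 0.200) and without MK-8931 2 (0.318), while the log2 fold change stayed between 0.63 and 0.68 over the 10 alternatives. All 16 tested neutrophil markers and all 10 monocyte markers had a positive log2 fold change in these libraries, with 14 and 5 past the threshold, and their part in this rise was not tested. Its sister gene Slc11a2, also picked out after its values were seen, which encodes the iron importer DMT1 found in most cells, went from 44.4 and 35.6 CPM to 45.8 and 50.4 CPM, a log2 fold change of 0.27 (adjusted p = 0.660). Whether the 2 genes differed in their change was not tested.

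The sequences upstream of 2 genes are shown because one is the gene that rose and the other, Slc30a1, had the smallest p of any carrier with a negative change. Both are from RefSeq's promoter windows on GRCm38.p6, which were matched for 114 of the 153 genes. These 114 genes had 153 windows in all, so some had more than 1. Both sequences are cut at the first base of the gene in the file. For Slc11a1 (chr1:74374953-74375194, plus strand) the capitals mark the purine-rich letters GAGGAA, as in binding sites of the myeloid factor PU.1. For Slc30a1 (chr1:191906531-191906766, plus strand) they mark GGGCGG, the GC box, and TGCACNC, one form of the metal response element, each on either strand.
Slc11a1: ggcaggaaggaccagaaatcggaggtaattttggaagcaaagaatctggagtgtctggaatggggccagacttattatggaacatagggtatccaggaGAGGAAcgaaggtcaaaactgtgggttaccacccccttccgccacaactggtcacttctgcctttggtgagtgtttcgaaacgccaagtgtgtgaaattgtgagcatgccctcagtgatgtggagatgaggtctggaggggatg
Slc30a1: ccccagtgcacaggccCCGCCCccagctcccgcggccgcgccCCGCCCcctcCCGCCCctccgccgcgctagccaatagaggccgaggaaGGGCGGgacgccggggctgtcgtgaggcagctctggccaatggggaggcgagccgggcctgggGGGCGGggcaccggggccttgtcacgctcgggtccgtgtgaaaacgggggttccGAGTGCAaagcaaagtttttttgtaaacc
The Slc11a1 stretch held 1 GAGGAA, 0 GC boxes and 5 CpG dinucleotides in 242 bases, at a GC content of 50.4%. The Slc30a1 stretch held 5 GC boxes, 1 GAGGAA, which is not capitalised, and 24 CpG dinucleotides in 236 bases, at a GC content of 72.0%. Its single TGCACNC is on the minus strand and ends 23 bases before the gene's first base. Over the full windows of 300 bases, GGGCGG on either strand was present in 71.9% of the carriers' windows and in 35.7% of all windows, and GAGGAA in 22.2% and 28.3%. TGCACNC was in 16.3% and 12.6%, TGCGCNC in 24.8% and 15.4%, and the lysosomal gene motif core TCACGTGA in 2.61% and 0.974%. These are letter matches and not binding sites. The set of all windows was not limited to genes expressed here, so the shares do not compare carriers with other expressed genes.

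Carriers of iron, heme and copper were taken here as the genes of Slc11, Slc31, Slc40 and Slc48. Genes of Slc25 and Slc39 were counted elsewhere, whatever metal they move. Of the 6 carriers in the group, 1 rose, Slc11a1, and 0 fell. The median log2 fold change of the group was 0.42, against −0.0030 for all genes tested. In 5 of the 6 both MK-8931 libraries were above both controls, as they were in 21.2% of all genes tested and 19.6% of well-covered genes. The group was singled out with these values known, so the count is a description. Slc31a2, which encodes the low-affinity copper carrier CTR2, was at 24.2 and 26.3 CPM in controls and at 33.1 and 44.0 CPM with MK-8931 (log2 fold change 0.61, SE 0.19, adjusted p = 0.230). Slc40a1, the gene of the iron exporter ferroportin, was scarce, at 5.82 and 5.57 CPM in controls and 7.69 and 9.35 CPM with MK-8931 (0.58, SE 0.27, adjusted p = 0.491). The exception was Slc48a1, the gene of a lysosomal heme exporter and one picked out after its values were seen, at 164 and 202 CPM in controls and 187 and 170 CPM with MK-8931, where the groups overlapped. In summed FPKM, which is scaled to gene length, the group went from 157 and 169 in controls to 203 and 205 with MK-8931, while Slc11a1 alone had 57.1 ± 0.882 FPKM in controls and 89.6 ± 1.71 FPKM with MK-8931 (SD, n = 2). Among 15 tested genes of iron and heme handling that are not carriers of this name pattern, 1 rose and 0 fell. It was Steap4, a metalloreductase gene, from 1.02 and 1.48 CPM to 9.95 and 15.3 CPM (log2 fold change 3.32, adjusted p = 0.00407, edgeR). The median of that list was 0.011.

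**Figure D4:**
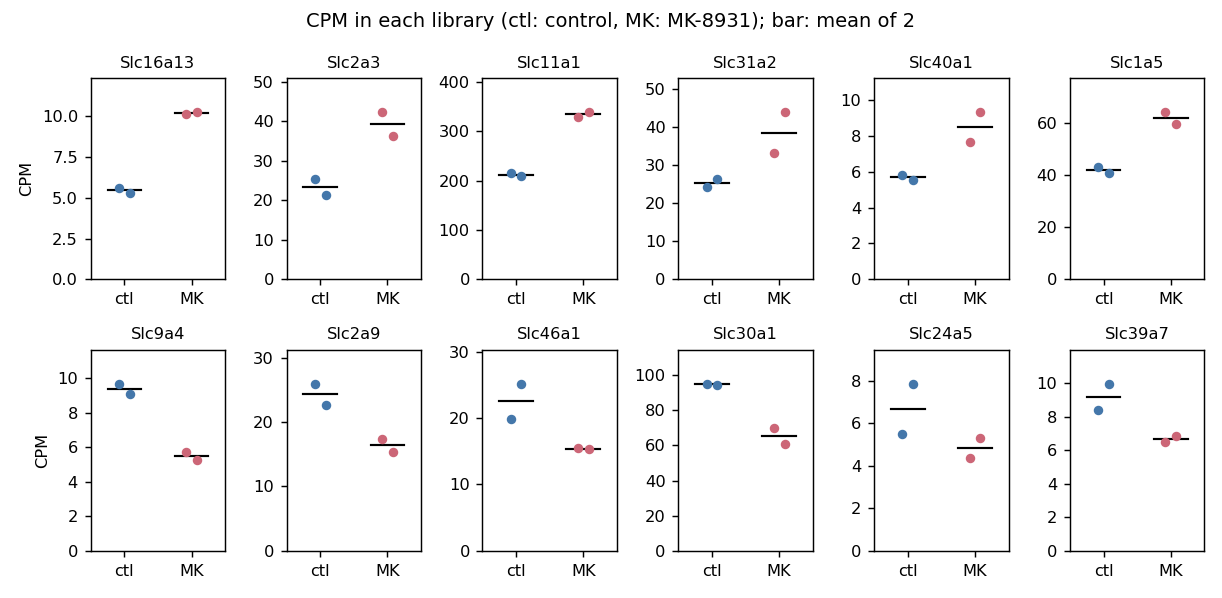
CPM in each of the 4 libraries (points) with the mean of 2 per group (bar), for the 6 largest positive changes (top row) and the 6 largest negative changes (bottom row) among the carriers whose groups do not overlap. Each vertical axis starts at 0; Slc11a1 stands at 209 to 215 CPM in controls and 330 to 339 CPM with MK-8931.

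Zinc carriers formed the second largest group, with 17 genes, of which 0 passed the test. The Slc39 family brings zinc into the cytosol, and its 11 genes had a median log2 fold change of 0.062. The Slc30 family removes it, and its 6 genes had a median of −0.083, with 5 below 0. Slc30a1, the gene of the surface exporter ZnT1, was at 95.1 and 94.3 CPM in controls and at 69.7 and 60.9 CPM with MK-8931. Both treated libraries lay below both controls (log2 fold change −0.54, SE 0.14, 95% interval −0.85 to −0.22, adjusted p = 0.143). Slc39a7, for the zinc channel of the endoplasmic reticulum, went from 8.40 and 9.96 CPM to 6.46 and 6.85 CPM (−0.46, SE 0.25, adjusted p = 0.589). The most abundant zinc carrier was Slc39a1, a surface importer, at 65.9 ± 1.14 FPKM in controls and 71.0 ± 1.31 FPKM with MK-8931 (SD, n = 2), with an adjusted p of 0.821 from edgeR. Of 8 tested genes that buffer or escort zinc and copper, 0 passed, with a median of −0.25. The metallothionein gene Mt1 had 440 and 535 CPM in controls and 340 and 322 CPM with MK-8931 (−0.56, adjusted p = 0.128), and the zinc-sensing factor gene Mtf1 had 23.4 and 21.7 CPM and then 19.6 and 18.7 CPM (−0.23, adjusted p = 0.727).

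Mitochondrial carriers, taken here as the whole Slc25 family, were the largest group. Its 32 genes took 27.3% and 31.1% of the carriers' summed FPKM in controls and 27.9% and 30.8% with MK-8931. None of the 32 passed the edgeR test, where adjusted p-values ran from 0.365 to 0.997, and the median log2 fold change was −0.010 with 16 genes on each side of 0. For 31 of the 32 the 95% interval lay within a 2-fold change. Slc25a5, which encodes the adenine nucleotide carrier ANT2 that exchanges ADP for ATP, was the most abundant of all 153 genes, at 272 ± 66.0 FPKM in controls and 250 ± 18.6 FPKM with MK-8931 (SD, n = 2). The controls stood far apart, at 373 and 523 CPM, with MK-8931 at 392 and 436 CPM between them. The log2 fold change was −0.11 (adjusted p = 0.897) and turned to 0.15 without control 2. Reads of its processed pseudogenes may be shared with it. Slc25a3, the phosphate carrier that feeds ATP synthesis, was next at 72.8 ± 4.35 FPKM in controls and 74.8 ± 3.89 FPKM with MK-8931. The smallest p in the group was that of Slc25a25, the gene of a calcium-regulated ATP and phosphate carrier, at 35.9 and 35.2 CPM in controls and 27.3 and 26.3 CPM with MK-8931. The log2 fold change was −0.41 (SE 0.15, adjusted p = 0.365).

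Taurine and creatine carriers, the pair of Slc6 genes expressed here, were both lower with MK-8931 in both libraries and neither passed. Slc6a6 was at 1150 and 1040 CPM in controls and 999 and 869 CPM with MK-8931 (log2 fold change −0.23, SE 0.13, adjusted p = 0.611). Slc6a8, the creatine carrier gene, which was picked out after its values were seen, was at 335 and 362 CPM and then at 281 and 267 CPM (−0.35, SE 0.12, adjusted p = 0.314). Of the 15 amino acid carriers 0 passed, the median was −0.097 and 11 lay below 0. Slc1a5, the gene of the glutamine carrier ASCT2, was one of the 4 above 0, at 43.1 and 40.8 CPM in controls and 64.3 and 59.6 CPM with MK-8931. The groups did not overlap (0.56, SE 0.14, 95% interval 0.24 to 0.89, adjusted p = 0.136). Slc7a8 was at 523 and 469 CPM in controls and 493 and 432 CPM with MK-8931, and the groups overlapped. Slc7a4 had 9.10 and 15.4 CPM in controls, one of the widest gaps between replicates, and 7.08 and 9.24 CPM with MK-8931. Of the 6 genes that the rule leaves out by name, Slc7a11, for the cystine carrier xCT, was past the threshold, at 7.32 and 7.10 CPM in controls and 31.7 and 35.3 CPM with MK-8931 (2.21, adjusted p = 9.47e-04, edgeR).

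Sugar and polyol carriers split in direction. Of 6 genes 0 passed, and 3 lay on each side of 0. Slc2a3, the gene of the high-affinity glucose carrier GLUT3, was at 25.3 and 21.3 CPM in controls and at 42.4 and 36.2 CPM with MK-8931, with no overlap (log2 fold change 0.75, SE 0.17, 95% interval 0.36 to 1.15, adjusted p = 0.105). Among the alternative fits to all 4 libraries, it passed with DESeq2, without the filter on low counts and with the replicate block. It did not pass with limma-voom (adjusted p = 0.098) or under either other scaling (adjusted p = 0.107 and 0.117, edgeR). With 1 library left out the log2 fold change was 0.63 to 0.87. Neutrophil markers were higher in the same libraries, and their part in this difference was not tested. Slc2a9, a urate carrier of the same family, was at 26.0 and 22.7 CPM in controls and at 17.4 and 15.4 CPM with MK-8931 (−0.57, SE 0.18, adjusted p = 0.270). The most abundant gene of the group, Slc50a1, the only mammalian gene of the SWEET sugar carriers, was at 17.6 ± 1.09 FPKM in controls and 15.3 ± 2.82 FPKM with MK-8931. Slc5a3, the myo-inositol carrier gene, had the widest gap between replicates of all 153 genes, with 7.32 and 3.17 CPM in controls and 14.1 and 5.27 CPM with MK-8931. The exons of Slc5a3 overlap those of Mrps6 on the same strand, so its reads are uncertain. Its log2 fold change of 0.89 became 0.0045 to 1.60 when single libraries were left out.

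Among the 7 carriers of monocarboxylates and dicarboxylates 0 passed, with a median of 0.27. Slc16a13, for a monocarboxylate carrier of the lactate family, had the largest positive fold of all 153 genes. It was at 5.60 and 5.31 CPM in controls and at 10.2 and 10.3 CPM with MK-8931 (log2 fold change 0.90, SE 0.25, adjusted p = 0.176). At this low level the 95% interval was wide, from 0.34 to 1.47, and both treated libraries lay above both controls. Slc16a6, the most abundant of the group at 21.7 ± 2.69 FPKM in controls and 17.6 ± 2.03 FPKM with MK-8931, was lower in both treated libraries (−0.30, adjusted p = 0.562). The exons of Slc16a6 overlap those of Gm25540 on the same strand. Slc16a14 had 14.3 and 13.1 CPM in controls and 23.4 and 13.3 CPM with MK-8931, so that only MK-8931 1 stood above the controls by more than their spread. Basigin and embigin are the chaperones that carry monocarboxylate carriers to the cell surface. In a list of 17 such partners and other carriers, 1 of 16 tested genes rose and 0 fell. It was Emb, for embigin, at 63.3 and 51.3 CPM in controls and 126 and 135 CPM with MK-8931 (1.19, SE 0.15, adjusted p = 0.00848, edgeR). Bsg, for basigin, was at 582 and 753 CPM and then at 587 and 714 CPM. The organic anion carriers of the Slco name, which lie outside the name pattern, had 0 calls among 5 tested. Slco2b1 had the smallest p of them, at 134 and 154 CPM in controls and 104 and 88.8 CPM with MK-8931 (−0.58, adjusted p = 0.130), followed by Slco4a1 (1.24, adjusted p = 0.186).

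Carriers of bicarbonate, protons and chloride set the pH and volume of the cell and its compartments. Of these 15 genes 0 passed, and the median was 0.0092. Slc9a4, a sodium and proton exchanger gene, had the largest negative fold of all 153 genes, from 9.69 and 9.10 CPM to 5.75 and 5.27 CPM (log2 fold change −0.77, SE 0.25, adjusted p = 0.279). Its groups did not overlap. The vacuolar proton pump acidifies the lysosomes whose carriers run on the proton gradient. Of its 16 tested genes 0 passed, with a median of −0.080, and Atp6ap2 and Atp6v1a had the smallest p (−0.33 and −0.23, adjusted p = 0.383 and 0.574).

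Peptide and vesicular carriers had 0 calls. Of these 5 genes 4 lay below 0, with a median of −0.12. Slc15a3, which exports histidine and small peptides from lysosomes, was at 71.7 ± 3.93 FPKM in controls and 65.8 ± 2.13 FPKM with MK-8931 (adjusted p = 0.821, edgeR). Slc17a5, for the sialic acid exporter sialin, was at 71.6 and 77.6 CPM in controls and 56.4 and 63.7 CPM with MK-8931 (log2 fold change −0.31, SE 0.14, adjusted p = 0.491). Slc29a3, a nucleoside carrier of lysosomes, was at 157 and 123 CPM in controls and 162 and 149 CPM with MK-8931, with overlap. Slc28a2, a concentrative nucleoside carrier gene, had the smallest p of the nucleoside group, at 25.2 and 25.3 CPM and then at 29.1 and 36.3 CPM (0.37, adjusted p = 0.510). The lysosomal arginine sensor and carrier Slc38a9 feeds the mTORC1 pathway. Of 19 genes of lysosomal nutrient sensing 0 passed, with a median of −0.031. Rraga and Rragd had the smallest p (−0.47 and −0.45, adjusted p = 0.269 and 0.349). Of 10 tested genes of endosomal nucleic acid and peptide sensing, a pathway that uses Slc15a3 and Slc15a4, 1 rose and 0 fell. It was the adaptor gene Myd88, from 33.9 and 35.8 CPM to 59.9 and 59.6 CPM (0.78, adjusted p = 0.0460, edgeR). Slc15a4, picked out in the same way, was at 70.8 and 72.9 CPM in controls and 72.9 and 66.8 CPM with MK-8931 (adjusted p = 0.960).

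The remaining groups also had 0 calls. Among 10 carriers of the endoplasmic reticulum and Golgi all intervals lay within a 2-fold change. Slc37a2, which exchanges glucose 6-phosphate and phosphate, led them at 43.0 ± 1.03 FPKM in controls and 40.9 ± 2.04 FPKM with MK-8931, and Slc37a3 had their smallest p (log2 fold change 0.39, adjusted p = 0.662). Of 6 vitamin carriers 5 lay below 0, with a median of −0.24. Slc46a1, for the proton-coupled folate carrier, was at 19.8 and 25.2 CPM in controls and 15.4 and 15.3 CPM with MK-8931 (−0.55, SE 0.20, adjusted p = 0.323). Slc23a2, for the ascorbate carrier SVCT2, was their most abundant at 26.3 ± 2.38 and 22.5 ± 2.90 FPKM. Fatty acid and choline carriers, 4 genes, had 2 on each side of 0. Slc27a1 had 515 and 483 CPM in controls and 435 and 423 CPM with MK-8931 (−0.22, adjusted p = 0.594). Slc44a2, for a choline carrier, had 63.5 and 55.4 CPM and then 75.7 and 84.1 CPM (0.43, SE 0.15, adjusted p = 0.296).

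Calcium exchangers were led by Slc8a1, for the sodium and calcium exchanger NCX1, at 17.0 ± 2.69 FPKM in controls and 17.5 ± 1.83 FPKM with MK-8931. Slc24a3 had the smallest p of these 3 genes (−0.44, adjusted p = 0.601), and Slc24a5, an intracellular potassium-dependent exchanger gene, had 5.49 and 7.87 CPM in controls and 4.36 and 5.33 CPM with MK-8931. Magnesium carriers comprised Slc41a1, Slc41a2 and Slc41a3, with 0 calls. Slc41a2 was at 10.9 ± 0.223 and 11.1 ± 0.852 FPKM, and Slc41a3 had 30.6 and 30.0 CPM in controls and 27.6 and 23.4 CPM with MK-8931 (−0.25, adjusted p = 0.698). The phosphate importers Slc20a1 and Slc20a2 led the phosphate and sulphate group, in level and in smallest p. Slc20a1 was at 13.5 ± 0.541 and 14.9 ± 3.49 FPKM, and Slc20a2 differed by −0.26 on the log2 scale (adjusted p = 0.700). Slc10a3 was both the most abundant of 6 organic ion and bile acid genes, at 4.69 ± 0.476 FPKM in controls and 6.40 ± 0.295 FPKM with MK-8931, and the one of smallest p (0.46, adjusted p = 0.524). Its exons overlap those of Ubl4a on the same strand. Of the genes only named after carriers, the scaffold Slc9a3r1 was at 65.6 ± 9.57 and 56.7 ± 0.574 FPKM, and Slc4a1ap had the smallest p (−0.31, adjusted p = 0.593).

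**Figure D5:**
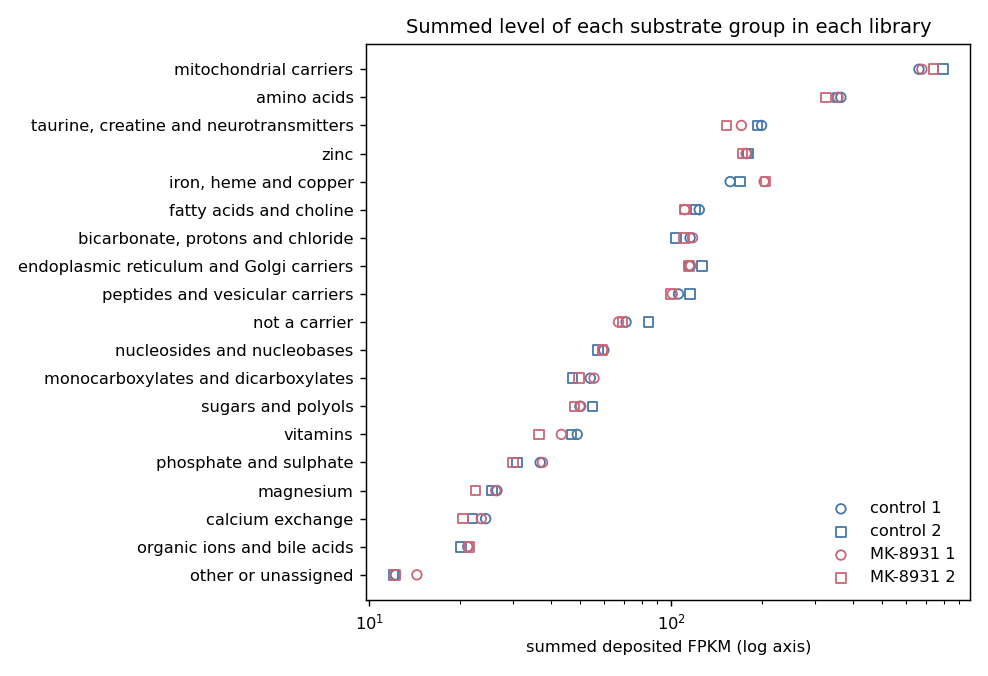
Summed deposited FPKM (horizontal log axis) of each substrate group in each library, controls in blue and MK-8931 in red. The iron, heme and copper group stands at 157 and 169 in controls and 203 and 205 with MK-8931, and the taurine and creatine pair at 199 and 193 and then at 171 and 153.

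How much of a family passed the minimum varied with the family. All 3 Slc41 genes, all 4 Slc37 genes, both Slc11 genes and both Slc31 genes were included, as were 11 of 14 Slc39 genes and 32 of 47 Slc25 genes. In contrast 4 of 25 Slc22 genes, the organic ion carriers of liver and kidney, 2 of 21 Slc6 genes and 2 of 13 Slc5 genes were included, and 15 Slc22 genes had no count in any library. Just inside the minimum were Slc25a53, whose lowest library had 54 counts, Slc9a3r2 with 59 and Slc5a3 with 62. Just outside were Slc25a14, whose lowest library had 46 counts, Slc27a3 with 40 and Slc25a42 with 39.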

How the data were processed

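RNA of sorted macrophages was sequenced in 2 control and 2 MK-8931 libraries. The authors deposited raw counts per gene and FPKM, which equals the count scaled by gene length and by a library total, per the file headers. The submitters' processing notes name CASAVA and mm9, but the coordinates in the file match GRCm38: 53548 of 54495 gene identifiers shared with GENCODE M21 have identical positions. No source used here names the aligner or the counter, or says whether strand was used. Of the carriers, 9 share exon sequence with another gene on the same strand and 43 with one on the other strand, so their reads are uncertain. A further 4 columns of per-sample values were not used.

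Counts were scaled by TMM, filtered with filterByExpr (minimum count 10) and tested with edgeR's quasi-likelihood test (edgeR 4.0.16, R 4.3.3, robust, two-sided, group as the only term). P-values were adjusted by Benjamini-Hochberg over 13932 genes, with a threshold of 0.05, and the carriers were read from that fit. DESeq2 1.42.0, limma-voom (limma 3.58.1), other scalings, no filter, a replicate block, each library left out and other count minimums were the alternatives. On counts simulated for this comparison over 13480 genes, edgeR found 10 of the 79 genes given a 1.5-fold change, 37 of the 54 given 2-fold and 51 of the 59 given 4-fold, with 5 false among 103 calls. A floor of 3 counts is 0.153 to 0.163 CPM, and floors cover counting error only. Replicates differed beyond counting noise (chi-square per degree of freedom 26.8 in controls and 15.7 with MK-8931).

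The genes, substrate groups and lists were chosen with earlier results of these data known. Named are the carriers past the threshold, the 8 of highest FPKM, the 6 largest changes each way without overlap, the most abundant and the smallest p of each group of 3 or more, the 3 on each side of the count minimum, the 3 widest replicate gaps, and from each list the genes called or else the 2 of smallest p. The values of 1 gene that this rule names are not reported here.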

Additional observations from a re-analysis of the deposited data

How the results depend on the processing

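Directions of the named carriers held under the other scalings, tests and filter. Counts of calls stayed within 1.5 times under both other scalings, and moved with the filter, DESeq2, the replicate block and some left-out libraries, and with limma-voom for genes called lower. Over all genes, 120 were higher and 19 lower in the reported fit, 366 and 176 without the filter, 266 and 96 with DESeq2, 120 and 30 with limma-voom, and 85 to 520 and 10 to 243 with 1 library left out (520 and 243 without control 1, 47 lower without control 2, 10 lower without MK-8931 2). Among the 153 carriers, 2 were higher and 1 lower without the filter (Slc11a1, Slc2a3 and Slc30a1), 2 and 0 with DESeq2, and 0 to 4 and 0 to 0 with 1 library left out. Without control 1 the 4 were Slc11a1, Slc25a37, Slc2a3 and Slc39a14. The carriers' median of −0.033 was −0.0032 with library size alone and −0.063 to −0.019 with 1 library left out. Count minimums of 20 and 100, a mean count of 50 and leaving out the 4 names that are not carriers each gave 1 higher and 0 lower. The cause was not tested in these cases.

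With the replicate block, 468 genes were higher and 275 lower, and 5 carriers were higher and 2 lower: Slc11a1, Slc1a5, Slc2a3, Slc30a1, Slc31a2, Slc39a14 and Slc6a8. The numbers do not pair the samples by any label. Across genes, the deviations of control 1 and MK-8931 1 from their group means had a correlation of 0.197. With 2 libraries a group, the other pair mirrors this one and adds nothing.

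With 1 library left out, the log2 fold change crossed 0 for Slc16a14 (−0.055 to 0.76), Slc20a1 (−0.12 to 0.36), Slc25a3 (−0.016 to 0.10), Slc25a5 (−0.35 to 0.15), Slc29a3 (−0.012 to 0.33), Slc41a2 (−0.050 to 0.10), Slc8a1 (−0.11 to 0.22) and Slc9a3r2 (−0.057 to 0.38), and the cause was not tested. In these fits the lone library of a group is assumed to vary like the other group. Depth limits the scarce carriers most, and the simulated recovery at 1.5-fold was low.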

Other observations

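The count minimum in all 4 libraries keeps out carriers that are scarce in either group. The genes named here were picked out after their values were seen. In 6 genes both controls had at least 50 counts and an MK-8931 library had fewer, and in 2 genes the reverse held. Of the 36 genes under the minimum that were tested, 0 passed. Slc22a23, an organic ion carrier gene, had 100 and 80 counts in controls and 36 and 19 with MK-8931 (log2 fold change −1.71, SE 0.44, adjusted p = 0.143, edgeR). Slc16a9, a gene of the monocarboxylate carrier family, had 84 and 114 counts and then 48 and 26 (−1.41, SE 0.41, adjusted p = 0.202). Slc39a2, a zinc importer gene, had 61 and 83 counts and then 34 and 30 (−1.15, adjusted p = 0.329). In the other direction Slc12a5, a potassium and chloride cotransporter gene, had 44 and 15 counts in controls and 52 and 80 with MK-8931 (1.16, adjusted p = 0.547).

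A further 18 genes with carrier names outside the pattern, such as Slco2b1, Slc8b1 and Slc9b2, had at least 50 counts in every library. Of these 0 passed the edgeR test, 9 lay above 0 and 9 below, and the median log2 fold change was −0.0039.

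The promoter windows of the carriers were richer in GC than promoter windows at large, with a median GC content of 62.0% against 52.7%. The median number of CpG dinucleotides was 19 against 7. The carriers were kept by their counts, while the windows at large were not limited to genes expressed here. Windows of well-covered genes were not compared, so a difference particular to carriers was not tested. The window of Slc11a1 had 7 CpG dinucleotides, and 18 of the 153 windows, which belong to 114 genes, had fewer.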
